A study of Capra hircus with 6 samples.

Results

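The annotated genes shorter than 200 bp were examined in goat cells before and after chemical induction. They were all features of the count table without an MSTRG ID, the form given to assembled loci, whose length was under 200 bp, and 593 of the 24950 features met this rule. The length was read from the deposited values, since the count divided by the FPKM (counts per kilobase of gene, scaled to the library total) and by the library total gave a whole number of bp in every library. Of these genes, 583 have IDs of the form gene with a number and 10 have IDs of the form rna with a number. The files give no names, classes or positions for them, and none of the IDs matched the RefSeq gene table of assembly ARS1.2 (0 matched). They are therefore described by length, and only a few by ID, and no sequence is shown.

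The CK group held 3 libraries of ear margin fibroblasts (day 0), grown from ears of Guanzhong dairy goats aged 2 to 3 months. The 5i8d group held 3 libraries of the cells obtained after 8 days in the induction medium with Forskolin, TTNPB, VPA, Repsox and Tranylcypromine (labelled BFRTV, and called 5i in the paper), on plates coated with Matrigel. The 5i8d libraries came from induced cells with primary colonies, which may be a mixture. The labels name no genetic change, and the number of animals behind the libraries is not given. The paper used CK1, CK2, 5i8d1 and 5i8d2, while the labels add CK3 and 5i8d3, so that values are given over all 6 libraries and, where it matters, over those 4.

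Genes of this size in a mammalian annotation are mostly transfer RNAs, which carry amino acids to the ribosome, precursors of microRNAs, which repress messenger RNAs, and small nucleolar and small nuclear RNAs, which guide the modification of ribosomal RNA and take part in splicing. Many small nucleolar RNAs and microRNAs lie inside introns of longer host genes and are made from the transcript of the host. Transfer RNA genes, in contrast, have their own promoters and are transcribed by RNA polymerase III, and many exist in near-identical copies. Which class each gene of the present set belongs to is not marked in the files.

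The libraries were made from total RNA after removal of rRNA, by fragmentation, random priming and recovery of a fragment size from a gel. The total counts ran from 28162284 to 37544673 per library. Among features with 4 to 19 counts, the count was an even number for 54.1% to 56.9% in the libraries numbered 1 and 2, and for 60.4% in CK3 and 62.6% in 5i8d3. Among the small genes with such counts this share was not seen to stand apart in CK3 and 5i8d3. Only 90 small genes in CK3 and 97 in 5i8d3 had such counts, which is few for a shift of that size. The share was 55.1%, 48.8% and 55.6% in CK1 to CK3 and 52%, 58.5% and 53.6% in 5i8d1 to 5i8d3. In the number of small genes detected, CK3 and 5i8d3 did stand apart from the other libraries, as the values below show. Without names, the labelled cell types could not be checked against marker genes.

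The set was dominated by a narrow peak of lengths. The shortest gene had 66 bp, the median was 73 bp and the longest had 198 bp. By band, 497 genes were under 100 bp, 80 had from 100 to under 150 bp (the middle band) and 16 had from 150 to under 200 bp (the upper band). Alone, the lengths of 72 bp (205 genes) and 73 bp (155 genes) took more than all the other lengths together. With 71 bp (9 genes) and 74 bp (23 genes) they made up 392 genes, which were looked at as a subset of their own after the lengths were seen. The next most frequent length was 82 bp, with 21 genes. A looser group lay around 101 to 114 bp, where lengths such as 106 bp (8 genes) and 110 bp (7 genes) recurred. At the limit, the gene of 198 bp had 1 count in CK2 and none elsewhere. The shortest annotated gene outside the limit had 203 bp, with 2, 14 and 5 counts in CK1, CK2 and CK3 and 23, 10 and 12 in 5i8d1, 5i8d2 and 5i8d3.

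**Figure D1:**
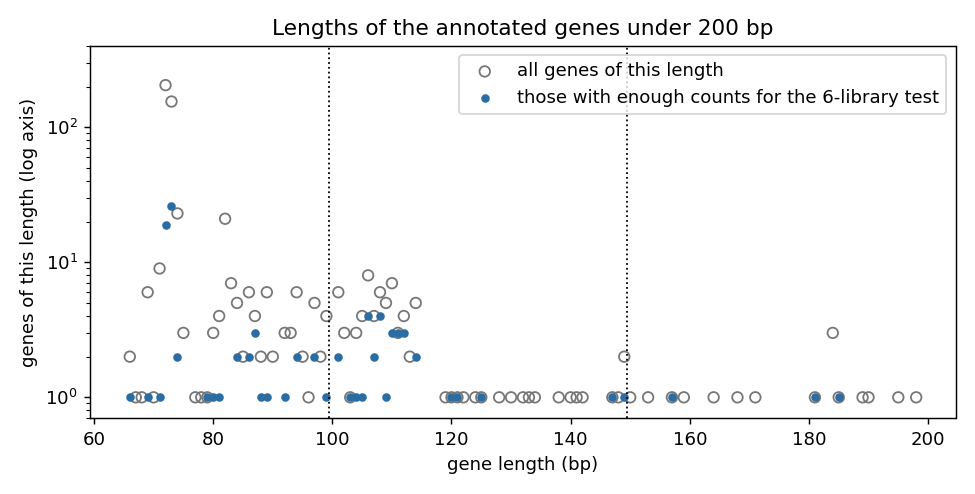
Number of annotated genes at each length under 200 bp (x axis in bp, y axis on a log scale), with dotted lines between the bands. Open circles are all genes of a length and filled circles those with enough counts for the test over 6 libraries. The lengths of 72 and 73 bp hold 205 and 155 genes.

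The small genes took very little of each library. Summed over the set, their level was 163, 159 and 123 CPM (counts per 1000000 counts of the library) in CK1, CK2 and CK3, and 221, 152 and 104 CPM in 5i8d1, 5i8d2 and 5i8d3. They averaged 148 ± 22 CPM for CK and 159 ± 59 CPM for 5i8d (SD, n = 3 each), so that the groups overlapped and differed by less than their spread. In bulk libraries such as these, fewer cells of a type and less RNA per cell cannot be told apart. Over the libraries numbered 1 and 2 the means were 161 ± 2.7 and 186 ± 49 CPM (SD, n = 2 each).

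The band under 100 bp and the middle band took similar shares in CK1 and CK2, although the second has far fewer genes. Genes under 100 bp summed to 81.1, 81.6 and 90.2 CPM in CK1, CK2 and CK3 and to 135, 79.1 and 54.0 CPM in 5i8d1, 5i8d2 and 5i8d3. Genes of the middle band summed to 77.0, 72.4 and 29.1 CPM in the CK libraries and to 80.6, 65.9 and 44.5 CPM in the 5i8d libraries. In both bands the groups overlapped, and in the second both libraries numbered 3 were the lowest of all. Genes of the upper band summed to only 4.73, 4.99 and 4.12 CPM in CK1 to CK3 and to 5.40, 6.87 and 5.59 CPM in 5i8d1 to 5i8d3. This was the band where every 5i8d library lay above every CK library. The sum came largely from a few of its 16 genes, and it was given no test because it is a score over chosen genes.

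Detection was sparse and depended on the library. At least 1 count was found for 319, 327 and 167 of the 593 genes in CK1, CK2 and CK3, and for 419, 364 and 170 in 5i8d1, 5i8d2 and 5i8d3. CK3 thus detected 0.517 times the mean of CK1 and CK2, and 5i8d3 detected 0.434 times the mean of 5i8d1 and 5i8d2. Among the 19916 annotated genes of 200 bp or longer the same ratios were 0.897 and 0.907. The small and the longer genes were not matched on count level. Longer genes with exactly 1 count were also fewer in the libraries numbered 3. They numbered 946, 908 and 250 in CK1 to CK3 and 644, 916 and 186 in 5i8d1 to 5i8d3. Both 5i8d1 and 5i8d2 detected more small genes than CK1 and CK2, but over all 6 libraries the groups overlapped, and averaged 271 ± 90 genes for CK and 318 ± 131 for 5i8d (SD, n = 3 each).

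Of the 593 genes, 82 were detected in all 6 libraries and 204 in a single library, and 348 had counts in the libraries numbered 1 and 2 and none in CK3 and 5i8d3. The median gene had 8 counts summed over the 6 libraries, and 383 genes stayed under 10 counts in every library. A gene without a count in a group was therefore mostly a gene at the limit of detection. By this measure 191 genes had counts in the 5i8d group only and 76 in the CK group only, most of them a few counts, which at this depth shows neither presence nor absence.

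**Figure D2:**
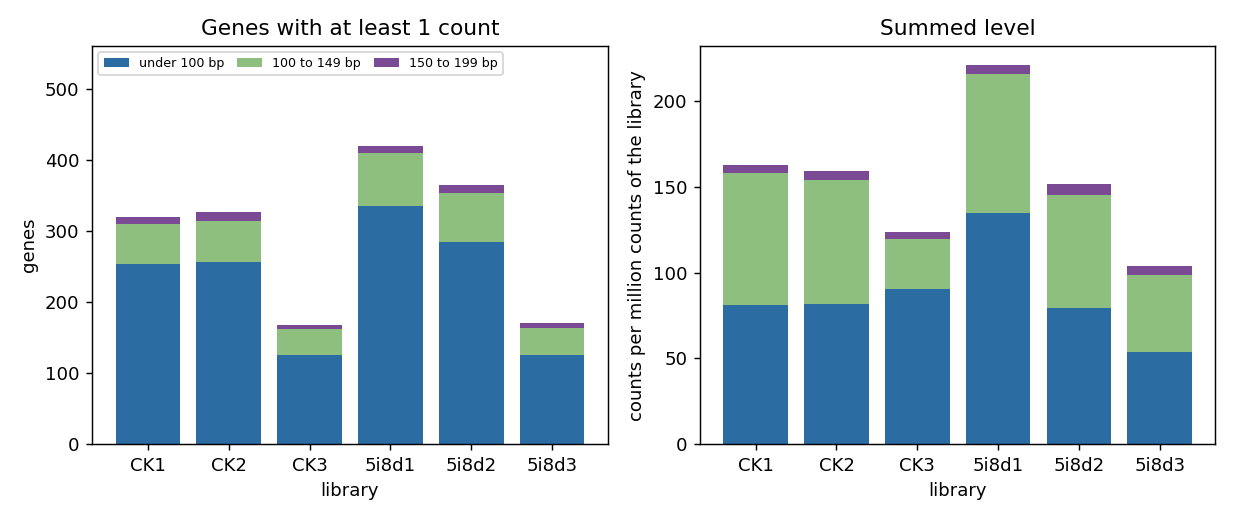
Number of small genes with at least 1 count (left) and their summed level in CPM (right) in each library, stacked by length band. CK3 and 5i8d3 detect 167 and 170 genes against 319 to 419 in the other libraries, and the summed level of 104 to 221 CPM does not separate the CK from the 5i8d libraries.

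Per length, most small genes were near 0. The median FPKM over the set was 0.350, 0.388 and 0 in CK1, CK2 and CK3 and 0.777, 0.370 and 0 in 5i8d1, 5i8d2 and 5i8d3. In the annotated genes of 200 bp or longer it ran from 1.64 in CK3 to 3.72 in 5i8d1. The FPKM divides by the whole length of the gene, which for genes shorter than the sequenced fragments can misstate the level, so that the counts are given beside it below.

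A small number of genes held much of the signal. The 10 with the highest mean CPM took 39.2%, 38.6% and 32.5% of the counts of the set in CK1, CK2 and CK3 and 30.1%, 36.8% and 33.9% in 5i8d1, 5i8d2 and 5i8d3. None of these 10 passed the test between the groups over 6 libraries, which is described below, while 4 of them were called lower over CK1, CK2, 5i8d1 and 5i8d2 (those of 80, 112 and 121 bp and the longest of the 10) and 2 with the replicate number as a block (that of 80 bp and the longest). The most abundant, of 87 bp, had 307, 329 and 63 counts in CK1, CK2 and CK3 and 536, 529 and 78 in 5i8d1, 5i8d2 and 5i8d3. Its log2 fold change from CK to 5i8d was 0.45 (standard error 0.75, edgeR adjusted p = 0.70), and the libraries numbered 3 were the lowest in both groups. The next, of 112 bp, was the most abundant of the middle band, with 448, 371 and 55 counts in CK1 to CK3 and 286, 259 and 160 in 5i8d1 to 5i8d3. Here, too, CK3 was far below CK1 and CK2 and 5i8d3 was the lowest of its group.

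Other abundant genes differed more between libraries of a group than between groups. A gene of 121 bp had 254, 217 and 0 counts in CK1, CK2 and CK3 and 113, 106 and 11 in 5i8d1, 5i8d2 and 5i8d3. It had no count in CK3 although well counted in the other CK libraries, and its log2 fold change of -1.24 had a standard error of 1.4 (edgeR adjusted p = 0.57). Over CK1, CK2, 5i8d1 and 5i8d2 alone it was -1.32 with a standard error of 0.26 and it was called lower (edgeR adjusted p = 0.011). A gene of 69 bp with an rna ID went the other way, with 67, 73 and 444 counts in CK1 to CK3 and 281, 17 and 121 in 5i8d1 to 5i8d3. It was the highest small gene of CK3, and 5i8d1 and 5i8d2 differed strongly from each other.

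In the upper band the most abundant gene, of 185 bp, had 62, 64 and 23 counts in CK1 to CK3 and 112, 163 and 99 in 5i8d1 to 5i8d3, without overlap of the groups. Its log2 fold change was 1.06 (standard error 0.42, edgeR adjusted p = 0.10), and with the replicate number as a block it was 1.10 and called (edgeR adjusted p = 0.045). It was not called over CK1, CK2, 5i8d1 and 5i8d2 (edgeR adjusted p = 0.069) or with DESeq2 (DESeq2 adjusted p = 0.058). A gene of 106 bp had 11, 13 and 24 counts in CK1 to CK3 and 34, 83 and 328 in 5i8d1 to 5i8d3, also without overlap. Its log2 fold change of 2.86 missed the threshold (standard error 0.96, edgeR adjusted p = 0.063), and with the replicate number as a block it was 2.43 and called (edgeR adjusted p = 0.0058). Of all features tested, 46% did not overlap between the groups in CPM. The fit with the block called 47.7% of all features, against 30.1% without it.

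How the libraries numbered 3 differed from the others depended on the length and on the measure. In the subset of 71 to 74 bp, CK3 detected 0.530 times and 5i8d3 0.381 times the mean number of genes of the other libraries of its group, and in the middle band 0.632 and 0.545 times. The summed CPM of the subset was 1.32 times that mean in CK3 and 0.583 times in 5i8d3, and that of the middle band 0.390 and 0.607 times. By detection both were thus low inside the peak too. By summed level CK3 was low in the middle band and from 75 to 99 bp (0.524 times that mean). It was not low in the peak or from 66 to 70 bp (5.28 times). Among the 101 small genes with 60 or more counts in all, CK3 and 5i8d3 were both below the other 4 libraries in CPM for 36 (35.6%), against 20.7% of all features with that many counts. They were both above them for 7 (6.93%), against 9.39% of all features. For the 47 genes of 71 to 74 bp the share below was 19.1%, and for the 54 of other lengths it was 50%. In the middle band it was 55.2% of 29 genes. These shares are descriptions, and the subset was chosen after the lengths were seen.

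The replicates differed accordingly. Among the 103 small genes with enough counts for the test, a 4-fold or larger difference in CPM separated CK1 from CK2 at 0 genes and 5i8d1 from 5i8d2 at 5. Between CK3 and either CK1 or CK2 there were 35 such genes. Between 5i8d3 and 5i8d1 there were 40, and between 5i8d3 and 5i8d2 26. As a share, the pairs with a library numbered 3 ran from 25.2% to 38.8% in the small genes and from 7.03% to 11.4% in the longer annotated genes that were tested. These genes were not matched on count level, and the part of low counts in this gap was not tested. The share of even counts given above also moved with the libraries numbered 3 over all features. Among the small genes no such move was seen, but few of them had counts in that range. The part of even counts in these differences was not tested.

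**Figure D3:**
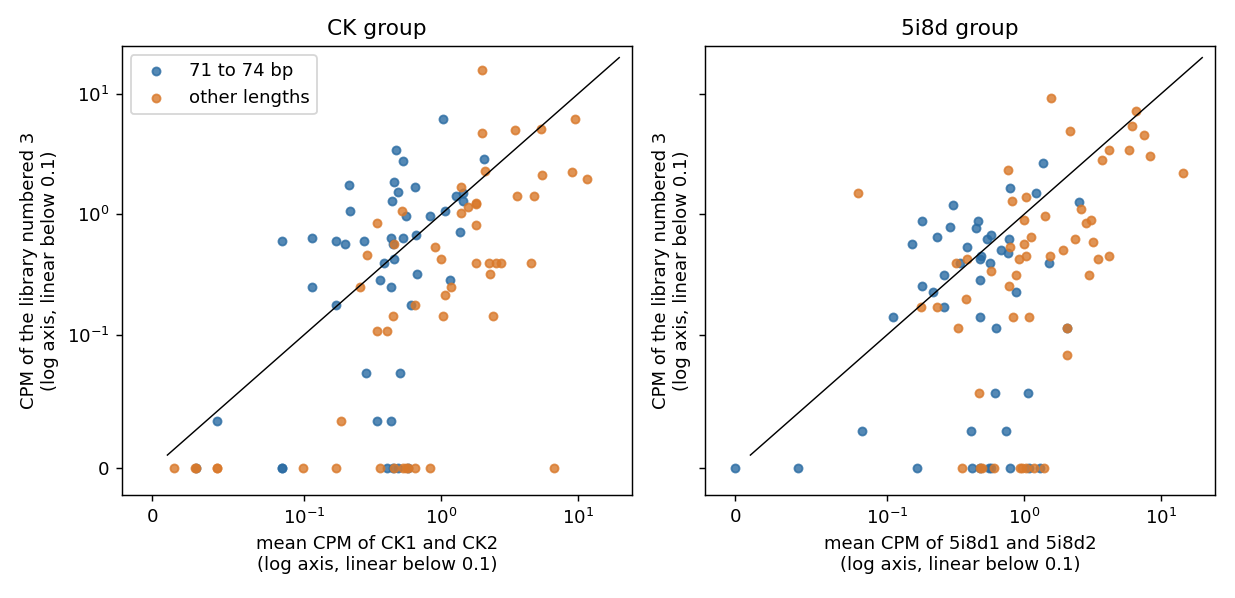
CPM of CK3 against the mean of CK1 and CK2 (left) and of 5i8d3 against the mean of 5i8d1 and 5i8d2 (right) for the 101 small genes with 60 or more counts in all, on log axes that are linear below 0.1, with the line of equality. Genes of 71 to 74 bp (blue) scatter on both sides of the line, and most genes of other lengths (orange) lie below it.

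Few small genes had enough counts for a test, and a smaller share of these passed it than in the table as a whole. The counts were compared between CK1 to CK3 and 5i8d1 to 5i8d3 with edgeR's quasi-likelihood test over all features with enough counts (filterByExpr), with a Benjamini-Hochberg adjusted p under 0.05 as the threshold. This filter kept 103 of the 593 small genes (17.4%) and 76.6% of the longer annotated genes. Of the 103, 6 were higher and 10 were lower at day 8, together 15.5%, while 30.1% of all 17757 features tested were called, 18.9% higher and 11.2% lower. The share of small genes called lower (9.71%) was thus near that of all features, and the share called higher (5.83%) was below it. Low counts give a test less to work with, so that these shares do not say that small genes respond less.

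By band, 4 rose and 7 fell among the 68 tested genes under 100 bp, 2 rose and 1 fell among the 32 of the middle band, and 2 fell among the 3 of the upper band. The median fitted log2 fold change over the tested genes was -0.50, 0.07 and -1.33 in these bands, against 0.04 over all features. The last of these rests on 3 genes, and the medians depended on the fit and on the genes it took in. With DESeq2 they were -0.00, 0.24 and 1.14, against 0.11 over all features. Without the count filter in edgeR they were 0.78, 0.52 and 0.40, against 0.17, so that no direction of a band is read from them. In the edgeR fit with the filter, 2 of 48 rose and 6 fell in the subset of 71 to 74 bp. By groups that do not overlap in CPM, 12 of the 103 lay above every CK library and 17 below, together 28.2%. Of all features tested, 29.9% were higher in this sense and 16.1% lower, together 46%.

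The count depended on the libraries used. Over CK1, CK2, 5i8d1 and 5i8d2 alone, 126 small genes were tested and 16 rose and 19 fell, together 27.8% against 41.6% of all features in that test. They included 15 of the 16 called over 6 libraries, with 0 in the opposite direction. From CK3 to 5i8d3, which this smaller test did not use, 11 of the 16 that rose were higher, 2 were lower and 3 had no counts in either, and 15 of the 19 that fell were lower and 3 higher. Of the genes not called there, 19 of the 40 with a positive fold change were higher and 20 lower, and among the 51 whose fold change was negative 29 were lower and 10 higher, so that many uncalled genes also fell from CK3 to 5i8d3. Leaving out 1 library gave 7 calls without 5i8d2, 8 without CK1 and up to 18 without CK3. With the replicate number as a block 9 rose and 14 fell, together 22.3% against 47.7% of all features. DESeq2 gave an adjusted p to 292 small genes, against 103 tested by edgeR over 6 libraries. It called 16 higher and 14 lower, together 10.3% against 31.5% of all features. In that larger set the genes that fell were not in excess. Some of its calls were genes with too few counts for the edgeR test over 6 libraries. The tool and the set of genes differed together, and the part of each was not tested.

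The 16 genes called over 6 libraries were of low abundance. None of them overlapped between the groups, which is no further support, since the call itself favours genes without overlap. Those near 0 counts in 1 group also passed the count filter only through the other group. Only 1 reached a mean of 50 counts. This was gene10030, of 157 bp, with 76, 70 and 64 counts in CK1 to CK3 and 27, 46 and 32 in 5i8d1 to 5i8d3. Its log2 fold change was -1.33 (standard error 0.40, edgeR adjusted p = 0.041). It missed the threshold over the 4 libraries (edgeR adjusted p = 0.053) and without any 1 of the 6, which makes its call the least stable among the 4 genes named by ID.

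The largest changes were gains and losses against a group at or near 0 counts, and the genes named for them were picked after their values were seen. gene20753, of 72 bp, had 23, 22 and 48 counts in CK1 to CK3 and none in any 5i8d library. With 3 counts taken as the floor of each 5i8d library, it was at least 13.9-fold lower (edgeR adjusted p = 0.0074), and at least 8.74-fold lower without CK3 and 5i8d3. gene1261, of 74 bp, had no counts in any CK library and 11, 15 and 24 in 5i8d1 to 5i8d3, which makes it at least 4.45-fold higher (edgeR adjusted p = 0.013). gene7384, of 125 bp, had 0, 2 and 0 counts in CK1 to CK3 and 35, 22 and 19 in 5i8d1 to 5i8d3. It was 30.7 times higher in the 5i8d group (95% counting interval 8.21 to 258, edgeR adjusted p = 0.011).

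Among the other genes that fell, several kept counts in both groups. A gene of 72 bp had 51, 39 and 40 counts in CK1 to CK3 and 4, 4 and 5 in 5i8d1 to 5i8d3, with libraries of each group close together (log2 fold change -3.60, standard error 0.51, edgeR adjusted p = 0.0022, the lowest of the set). A gene of 73 bp went from 70, 73 and 81 counts to 29, 20 and 18 (log2 fold change -2.09, standard error 0.44). Another of 73 bp went from 47, 55 and 42 to 21, 20 and 14 (-1.71, standard error 0.42). In these genes CK3 and 5i8d3 lay with the other libraries of their group.

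Genes of other lengths fell as well. One of 94 bp had 67, 60 and 35 counts in the CK libraries and 14, 9 and 14 in the 5i8d libraries (log2 fold change -2.39, standard error 0.47). One of 112 bp had 45, 81 and 34 against 17, 25 and 12 (-1.85, standard error 0.49). One of 181 bp had 11, 20 and 24 against 2, 1 and 0, a ratio of CK to 5i8d of 22.7 (95% counting interval 7.37 to 113), and of 12 over the 4 libraries. A further gene of 73 bp had 20, 38 and 27 against 2, 1 and 0, a ratio of 35.1 (95% counting interval 11.6 to 173), and of 22.5 over the 4. The last, of 72 bp, had 21, 12 and 96 against 5, 1 and 1. Its ratio of 22.8 over 6 libraries rested on CK3 and was 6.41 over the 4.

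The other genes that rose were of 73, 84, 84 and 111 bp. The gene of 73 bp had 2, 4 and 0 counts in CK1 to CK3 and 25, 33 and 58 in 5i8d1 to 5i8d3 (log2 fold change 3.98, standard error 0.89). Its ratio of 5i8d to CK was 15.6 over 6 libraries and 8.3 over the 4. The gene of 111 bp had 11, 9 and 13 against 43, 62 and 34 (1.69, standard error 0.51). One gene of 84 bp had 1, 6 and 0 against 42, 33 and 16 (3.38, standard error 0.98), and the other had 2, 1 and 0 against 36, 27 and 11 and was 19.9 times higher (95% counting interval 6.56 to 98.8). As in all called genes, the groups did not overlap here, and 5i8d3 was the lowest 5i8d library in all but the gene of 73 bp.

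**Figure D4:**
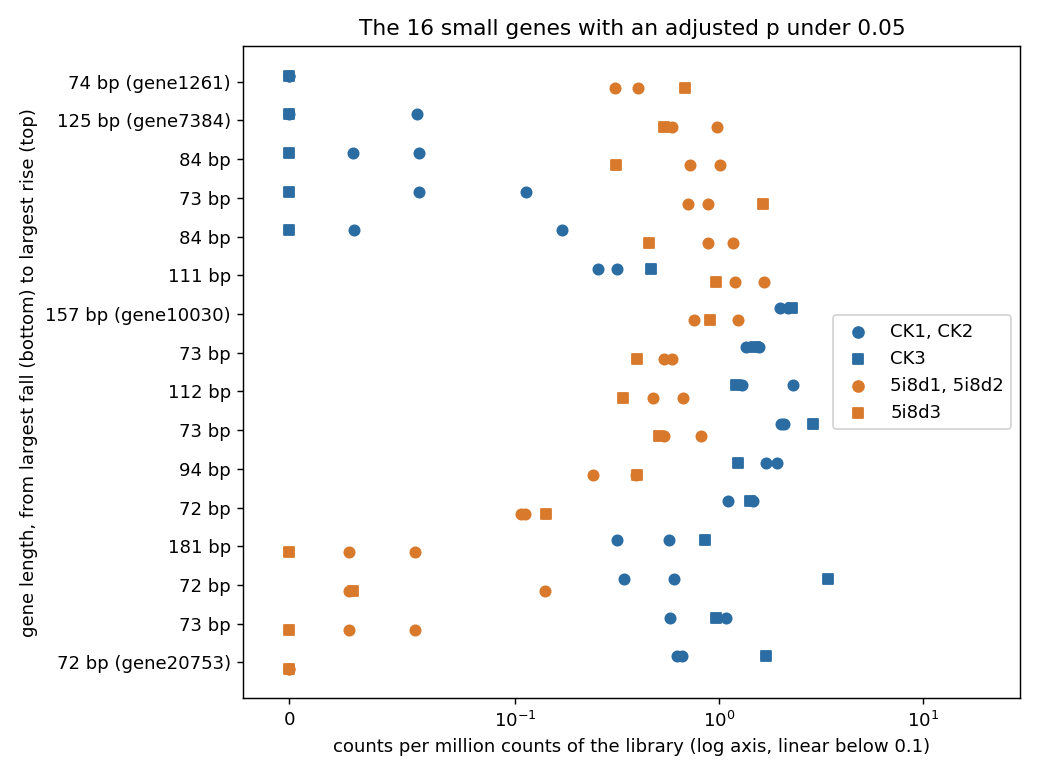
CPM of the 16 called small genes in each library, from the largest fall at the bottom to the largest rise at the top, with CK libraries in blue, 5i8d libraries in orange, and CK3 and 5i8d3 as squares. The axis is logarithmic above 0.1 and linear below it, and points at 0 lie on each other. In each gene the blue and the orange points do not overlap, which the call itself favours.

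The small genes that changed mostly moved with a longer gene of the neighbouring ID number. Whether the numbers follow the order of genes along the chromosomes is not stated in the files. Among the 16 called genes, 14 had a tested gene of 200 bp or longer whose number was higher or lower by 1. For 13 of the 14 (92.9%) such a gene was called in the same direction, and for 0 in the opposite direction. For the longer annotated genes called in the same fit, 36.1% of the 3819 with such a neighbour had one called in the same direction. Of the same 3819 genes, 490 had one called in the opposite direction. The small and the longer called genes were not matched on count level or on size of change. Of the 78 small genes not called that had such a neighbour, 24 (30.8%) had a called one, in either direction.

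The named genes show how far the values matched. Next to gene20753, the gene of 5476 bp with the number before had 7830, 6634 and 6166 counts in CK1 to CK3 and 29, 15 and 20 in 5i8d1 to 5i8d3. Its log2 fold change of -8.65 (standard error 0.40, edgeR adjusted p = 0.0001) came with a loss of counts in the same libraries as in the small gene. Next to gene7384, the gene of 1762 bp with the number before rose from 23, 18 and 19 counts to 282, 282 and 193 (log2 fold change 3.31, standard error 0.37). Per length, gene7384 had an FPKM of 7.83, 4.69 and 4.29 in 5i8d1 to 5i8d3, and its neighbour 4.48, 4.26 and 3.09. For gene20753 the FPKM in CK1 to CK3 was 9.17, 8.66 and 23.7, below the 41, 34.3 and 40 of its neighbour.

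For the other named genes the direction was shared, and the levels matched in only 1. Next to gene1261, the gene of 1894 bp with the number after rose from 31, 12 and 4 counts in CK1 to CK3 to 292, 194 and 63 in 5i8d1 to 5i8d3 (log2 fold change 3.27, standard error 0.79), while the gene with the number before it was at 0.14 (standard error 0.35). In FPKM, gene1261 had 4.16, 5.40 and 9.16 in 5i8d1 to 5i8d3 and the gene after it 4.31, 2.73 and 0.939, so that 5i8d3 was the highest 5i8d library for the small gene and the lowest for its neighbour. Next to gene10030, the gene of 4288 bp with the number after fell from 2839, 2864 and 1684 counts to 1258, 1313 and 871 (log2 fold change -1.40, standard error 0.23), against -1.33 in the small gene. Their FPKM lay nearer to each other, with 13.9, 12.6 and 14.5 in CK1 to CK3 for gene10030 and 19, 18.9 and 13.9 for its neighbour.

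A called gene without this pattern was that of 72 bp with 96 counts in CK3, whose neighbours had log2 fold changes of -0.79 (standard error 1.1) and -0.63 (standard error 0.72). Over all 143 pairs of a tested small gene and a tested neighbour of 200 bp or longer, the Pearson correlation of the log2 fold changes across pairs was 0.594, and 98 pairs (68.5%) had the same sign. The pairs share libraries, and some share a gene. Among 10188 pairs of longer annotated genes with consecutive numbers the correlation was 0.261, and 58% had the same sign. For the genes of 71 to 74 bp it was 0.697 over 77 pairs and for the other lengths 0.476 over 66. Among the 124 pairs whose small gene was not called it was 0.329. Single pairs with large changes weigh on such values. In the first subset gene20753 stood at -8.24 beside a neighbour at -8.65. Among the other lengths a gene of 99 bp stood at 0.50 beside a neighbour at 7.18. The subset was chosen after the lengths were seen, and the difference between the 0.697 and the 0.476 was not tested. The kit keeps the strand. The sources used here do not give the strand setting of the counting or the treatment of overlapping genes and of reads that match several copies, so that counts of near-identical genes are uncertain. The part of shared reads in this match was not tested.

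**Figure D5:**
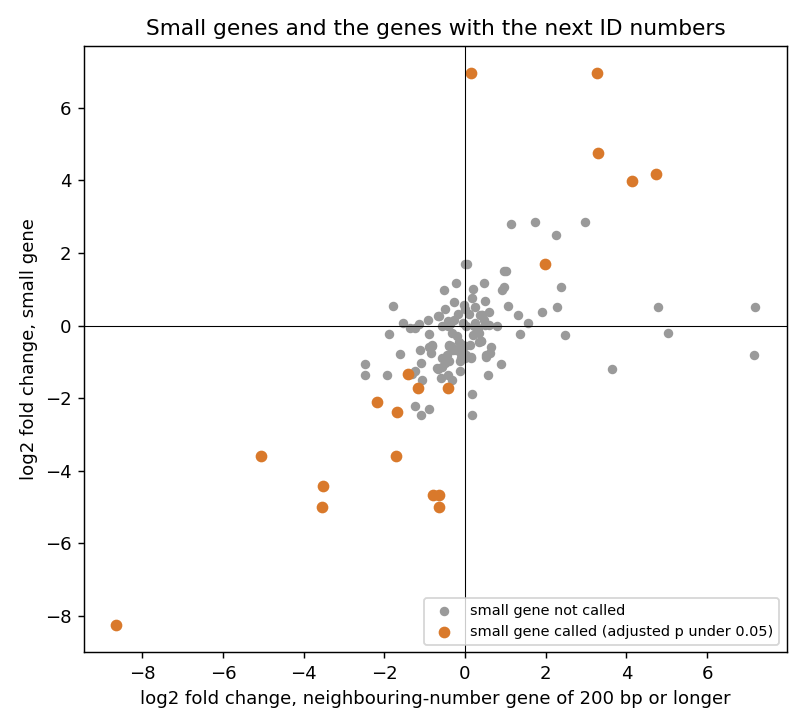
Fitted log2 fold change from CK to 5i8d over 6 libraries of each tested small gene (y axis) against that of a gene of 200 bp or longer with the ID number before or after it (x axis), for 143 pairs. Pairs whose small gene was called (orange) have the same sign on both axes where both genes were called, and a small gene with a neighbour on each side appears as 2 points.

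Small genes also had consecutive numbers among themselves. Of the 583 with numbered gene IDs, 131 stood in 56 runs of 2 or more, and the longest run had 6 genes. A run of 3 genes of 84, 88 and 80 bp rose together in the 4 libraries numbered 1 and 2. The gene of 84 bp is the called one described above with 2, 1 and 0 counts in CK1 to CK3. The gene of 88 bp had 1, 0 and 0 counts in CK1 to CK3 and 77, 24 and 0 in 5i8d1 to 5i8d3, and the gene of 80 bp had 0, 1 and 0 against 22, 19 and 0. Neither of these had enough counts for the test over 6 libraries, as both were at 0 in 5i8d3. The longer gene of 7773 bp numbered just before the run rose from 16, 7 and 4 counts to 591, 187 and 116 (log2 fold change 4.75, standard error 0.81, edgeR adjusted p = 0.0048).

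Other runs were lower at day 8 or mixed. The run of 6 genes, of 74 to 98 bp, summed to 36, 31 and 13 counts in CK1 to CK3 and to 7, 4 and 8 in 5i8d1 to 5i8d3. None of its genes had enough counts for the test. The sums did not overlap in CPM, but all 8 counts of 5i8d3 came from the gene of 74 bp, which had 8 in CK3 as well. Of all features tested singly, 46% did not overlap between the groups in CPM. A run of 3 abundant genes of 87, 104 and 80 bp summed to 10.7, 11.6 and 4.08 CPM in CK1 to CK3 and to 9.73, 9.93 and 6.30 CPM in 5i8d1 to 5i8d3, and its members went different ways. The gene of 104 bp had 165, 168 and 40 counts against 227, 225 and 191 (log2 fold change 0.56, standard error 0.46), while that of 80 bp had 177, 209 and 60 against 101, 124 and 32 (-1.07, standard error 0.57), and neither was called over 6 libraries. The gene of 80 bp was called over the 4 libraries (edgeR adjusted p = 0.030) and with the replicate block (-1.13, edgeR adjusted p = 0.021). Of the 8 pairs of consecutive small genes that were both tested, 5 had the same sign.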

How the data were processed

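The authors depleted rRNA, built directional libraries and counted reads per gene, for which the submitters' processing notes name HTSeq, FastQC 0.10.1 and DESeq2 1.16.1. Which aligner, build and strand setting were used was not given in the sources used here. Deposited counts are raw whole numbers, and the deposited FPKM were made from them by the authors. The members and lists were chosen with earlier results of these data known. All features were fitted together in R 4.3.3 with edgeR 4.0.16 (TMM scaling, the filterByExpr filter and the quasi-likelihood test), with p-values adjusted by Benjamini-Hochberg over all features tested and called under 0.05. DESeq2 1.42.0, other filters, other scalings, the 4 libraries, a replicate block and leaving out each library were alternatives. Standard errors were taken as the size of the log2 fold change over the root of the F statistic. The main fit used all 6 libraries. The paper used 2 of each group and calls them biological replicates, and since the labels name no separate cultures or animals, p-values reflect only library-to-library spread, which may be technical. CPM in the text use library totals, and folds against few counts use TMM-scaled libraries. Floors of 3 counts and exact 95% intervals cover counting error only. Differences of 4-fold used a prior count of 2.

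The rule for genes named by ID took up to 2 called genes in each direction, without overlap between groups and with 50 or more counts on average, by size of change. It gave 1 gene, and the other 3 were chosen by the same rule without the count limit after the values were seen. Same-numbered libraries deviated together from their group means over 17757 features, with correlations of 0.421, 0.549 and 0.669 for numbers 1, 2 and 3. Across numbers, the correlation was 0.468 for CK1 and 5i8d2, above that for number 1, and 0.287 for CK2 and 5i8d1, so that the pairing of number 1 is weak. The pairing is read from the data only, and since deviations within a group sum to 0, a shift that CK3 and 5i8d3 share also enters the other correlations. No replicate pair agreed within sampling noise (chi-square per degree of freedom of 15.9 or more).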

Additional observations from a re-analysis of the deposited data

How the results depend on the processing

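With DESeq2 in place of edgeR 16 small genes rose and 14 fell, and all 16 genes called by edgeR were among them. With the paper's 4 libraries 16 rose and 19 fell. By band these settings gave 22 (DESeq2) and 25 (4 libraries) calls under 100 bp, 6 and 9 in the middle band, and 16 and 13 in the subset of 71 to 74 bp. In the upper band, 1 was called in the 4 libraries and 1 without a filter on low counts, against 2. Leaving out each library in turn gave 2 to 9 genes that rose and 4 to 11 that fell, 5 to 13 calls under 100 bp, 0 to 5 in the middle band, 0 to 1 in the upper band and 4 to 10 from 71 to 74 bp. With the replicate number as a block 9 rose and 14 fell, and 15 of the 16 genes were called. With a limit of 10 counts the mean number of genes detected was 96.3 in the CK and 110 in the 5i8d group. The mean over libraries of the median log10(FPKM + 1) was 0.0909 and 0.129 in these groups. A pseudocount of 0.1 gave -0.553 and -0.462, one of 0.01 gave -0.948 and -0.841, and genes that passed the filter alone gave 0.83 and 0.823. No named gene changed direction under these settings, but 10 of their 52 alternative tests missed the threshold, most of them for gene10030. Size factors of DESeq2 in edgeR, another low-count filter and library sizes from longer genes left every count within 1.5 times. The low counts limit what can be seen, since 490 of the 593 genes did not pass the count filter of the fit over 6 libraries. Without that filter all 593 were tested, and 6 rose and 10 fell, together 2.7% against 20.6% of all features. Of the genes called without the filter, 13 were among the 16 of the main fit.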
